A study of Mus musculus with 54 samples.

Results

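The ryanodine receptors (Ryr1, Ryr2 and Ryr3) and the inositol trisphosphate (IP3) receptors (Itpr1, Itpr2 and Itpr3) are the calcium release channels of the endoplasmic reticulum (ER). The 6 genes were taken by Ensembl identifier from a table of read counts for 30031 gene identifiers, and all 6 were among the 18941 genes tested, those with at least 1 read in more than 6 of the 18 replicates. RNA-seq was carried out on the suprachiasmatic nucleus (SCN), the master circadian clock in the hypothalamus, which had been isolated by laser-capture microdissection from male C3H/HeH mice aged 10 to 12 weeks and kept under a 12:12 light/dark (LD) cycle. The groups were the 6 timepoints ZT2, ZT6, ZT10, ZT14, ZT18 and ZT22 (zeitgeber time, in hours after lights on), with 3 biological replicates each, lettered A, B and C, and they shared strain, sex, age and housing and differed in the time of harvest. Each replicate pooled the SCN of 5 mice, so p-values here measure the spread between pools and not between mice. About 1 ng of its RNA was amplified by the SMARTer protocol and sequenced as 100-bp paired ends over 3 lanes, which gave 54 lane samples.

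IP3 receptors open when IP3, made by phospholipase C downstream of Gq-coupled receptors, reaches the ER, and calcium itself adds to or ends their opening. Ryanodine receptors open on a rise in cytosolic calcium and so amplify calcium that enters from outside, which is known as calcium-induced calcium release. In the SCN, stored calcium released through these channels takes part in the signalling by which light at night shifts the clock.

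The replicates held between 15412981 and 35820945 counted reads, with a median of 25075231. In a principal component analysis of the 500 most variable genes, the first component held 41.0% of the variance, and 93.3% of it lay between 3 clusters of libraries (ZT14 and ZT18, ZT22 and ZT2, ZT6 and ZT10). The study names timepoint and sequencing batch for the separation in its own component plot and regards the effect of batch as minimal, and which libraries shared a batch is not given in the sources used here. Whether the clusters follow batches was therefore not tested, and the differences inside a cluster are given first. All 10 markers of SCN neurons were detected, and their summed level lay between 1803 and 5745 CPM (read counts scaled to the size of each library) in all libraries. In such bulk tissue, fewer cells of a type and less RNA per cell cannot be told apart.

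Itpr1 was the most abundant of the 6 channels per length of transcript at all timepoints, and its level at ZT14 was 3.09-fold that at ZT18. Ryr2, the most abundant ryanodine receptor, was 3.37-fold higher at ZT14 than at ZT18 and reached its highest mean at ZT22. Ryr3 had the same order of its 3 highest timepoints as Ryr2 at a lower level. Itpr2 differed between the clusters of libraries and hardly inside them, and Ryr1 and Itpr3 were low, at or under 6.07 CPM in all replicates. In the test that all 6 timepoint means are equal (edgeR quasi-likelihood F-test, Benjamini-Hochberg adjusted p under 0.05), 4 of the 6 genes changed with time, against 44% of all genes tested.

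**Figure D1:**
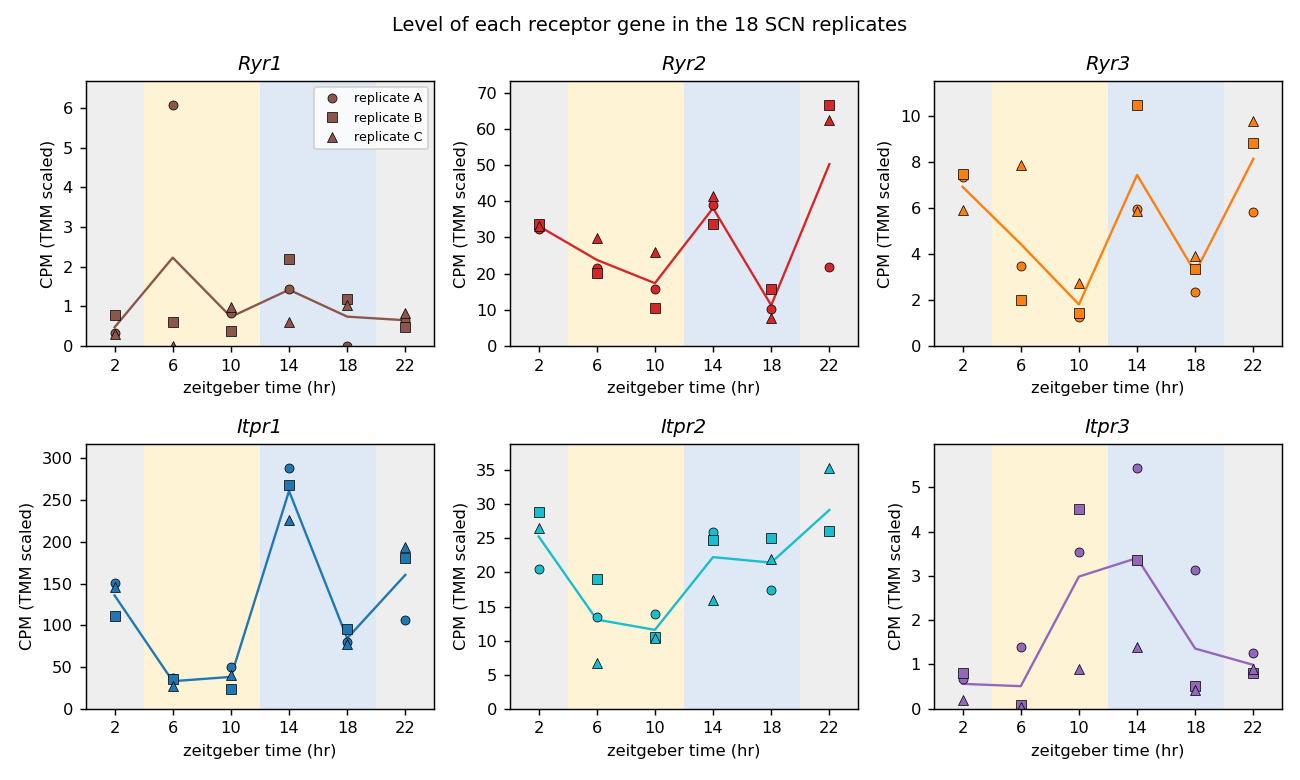
Level of each gene (CPM with TMM scaling, vertical axis from 0) against zeitgeber time in hours for the 18 replicates, with a marker shape for each replicate letter, a line through the timepoint means and background shading for the 3 clusters of libraries (ZT14 and ZT18, ZT22 and ZT2, ZT6 and ZT10). Itpr1 stood between 226 and 289 CPM at ZT14 and between 78.0 and 95.1 CPM at ZT18, and Ryr1 was raised in ZT6 replicate A alone, at 6.07 CPM.

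Levels were compared between genes per kilobase of the longest coding transcript, since these genes have transcripts of 8990 to 16814 bases. Over the 18 replicates the mean levels per kilobase were 12.0 CPM for Itpr1, 1.75 for Itpr2, 1.72 for Ryr2, 0.344 for Ryr3, 0.182 for Itpr3 and 0.0679 for Ryr1. Itpr1 ranked first in 18 of 18 replicates. Ryr2 stood above Itpr2 in 8 of 18 replicates and below it in 10, so that these neighbours in the order did not differ beyond their spread, while per kilobase of all exons Ryr2 stood above Itpr2 in 4 and below it in 14. Ryr2 exceeded Ryr3 in 18 of 18 replicates and Ryr3 exceeded Ryr1 in 17 of 18.

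Among the ryanodine receptors, Ryr2 made up 79.6% ± 7.68 (SD, n = 18) of the summed level per kilobase, Ryr3 16.6% ± 6.17 and Ryr1 3.82% ± 4.84. Among the IP3 receptors, Itpr1 made up 82.2% ± 8.00 (SD, n = 18), Itpr2 15.8% ± 6.46 and Itpr3 1.99% ± 3.16. With the union of all exons as the length, the Itpr1 share was 75.8% ± 10.1 (SD, n = 18) and the Ryr2 share 74.4% ± 8.68, and the order of the genes in each family did not change. The form best known from neurons thus led the IP3 receptors, and the form best known from heart and brain led the ryanodine receptors.

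The mean share of Itpr1 ranged from 73.4% ± 9.01 (SD, n = 3) at ZT10 to its highest value at ZT14. It was 92.2% ± 1.37 (SD, n = 3) at ZT14 and 81.1% ± 0.63 at ZT18, and the replicates of these timepoints did not overlap (exact permutation test, two-sided, p = 0.1, which is the smallest p that 3 against 3 replicates allow). The log2 ratio of Itpr1 to Itpr2 in CPM was likewise 1.59 higher at ZT14 than at ZT18, again without overlap (exact permutation p = 0.1). Between ZT22 and ZT2 the share of Itpr1 differed by -0.11 percentage points (exact permutation p = 0.9), and between ZT10 and ZT6 by -1.62 points (exact permutation p = 0.9). Itpr2, the second IP3 receptor, took 6.56% ± 0.82 at ZT14 and 23.8% ± 7.14 at ZT6. The mean Ryr2 share ranged from 71.7% ± 11.1 at ZT18 to 85.9% ± 1.73 at ZT10 (SD, n = 3), and its change was not tested.

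**Figure D2:**
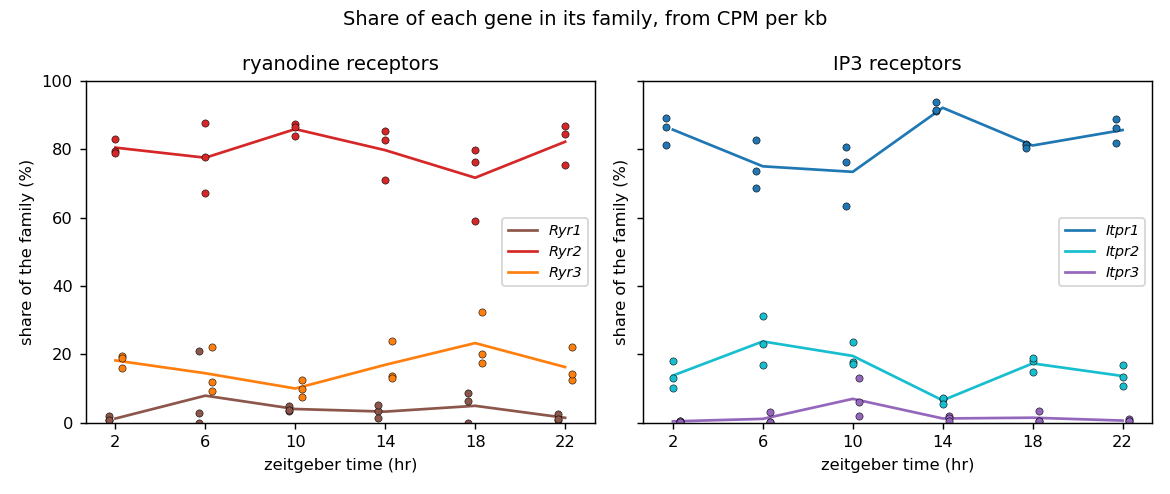
Share of each gene in the summed level per kilobase of its family (percent, vertical axis) against zeitgeber time in hours, with points for replicates and lines through the timepoint means. Ryr2 held most of the ryanodine receptor level and Itpr1 most of the IP3 receptor level at every timepoint, and the Itpr1 points were highest at ZT14, between 91.2% and 93.7%.

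The sequence before the transcription start was available for 4 of the 6 genes (RefSeq, GRCm38.p6): Ryr1, Ryr2, Itpr2 and Itpr3. The 250 bases of Ryr2 and Itpr2 are shown since both genes changed with time in different patterns, and those of Itpr3 since it held the clock element searched for. Capitals mark the motifs found on either strand.
Ryr2: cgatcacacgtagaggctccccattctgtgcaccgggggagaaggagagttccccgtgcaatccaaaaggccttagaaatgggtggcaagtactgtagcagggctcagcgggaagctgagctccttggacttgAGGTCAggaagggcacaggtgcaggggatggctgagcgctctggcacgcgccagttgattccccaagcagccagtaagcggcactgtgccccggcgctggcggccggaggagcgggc
Itpr2: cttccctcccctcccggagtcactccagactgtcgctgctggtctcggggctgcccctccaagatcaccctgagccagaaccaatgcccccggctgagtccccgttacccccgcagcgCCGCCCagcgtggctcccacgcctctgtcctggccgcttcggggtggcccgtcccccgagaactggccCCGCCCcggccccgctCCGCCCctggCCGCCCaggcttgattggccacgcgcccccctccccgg
Itpr3: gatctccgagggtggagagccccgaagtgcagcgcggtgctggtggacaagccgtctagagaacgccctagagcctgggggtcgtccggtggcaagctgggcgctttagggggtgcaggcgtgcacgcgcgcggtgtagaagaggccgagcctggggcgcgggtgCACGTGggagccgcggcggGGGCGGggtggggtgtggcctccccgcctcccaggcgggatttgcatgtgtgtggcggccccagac
They lie at chr13:12106946-12107195 (minus strand), chr6:146502224-146502473 (minus strand) and chr17:27057054-27057303 (plus strand) and are written 5′ to 3′ on the strand of the gene. The motifs were the E-box CACGTG bound by CLOCK and BMAL1, the cAMP response element TGACGTCA, the D-box as TTATGTAA or TTACGTAA, the nuclear receptor core AGGTCA, and the GC box GGGCGG, and no motifs found in these windows overlapped. Itpr3 held the E-box with its first base at -85 and a GC box at -66, and 6.02% of 32851 promoters of this length held an E-box. Ryr2 held AGGTCA at -117 (14.0% of promoters), and Itpr2 held 4 GC boxes in reverse orientation at -132, -64, -48 and -38 (32.7% of promoters held at least 1). Ryr1 held 2 GC boxes. The cAMP response element (1.55% of promoters) and the D-box forms (0.819% and 0.113%) were in none of the 4 windows. A match of letters is a description and not evidence of binding.

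Reads of 1 gene could reach another where the paralogs are alike, so the longest stretches of identical sequence were sought in the coding transcripts (GRCm38). Ryr1 and Ryr2 shared at most 35 bases in a row, which run over an exon junction and are shorter than the 100-bp reads. The 30 capitals are the bases that Ryr3 has too, and the second line gives the longest run shared by Itpr2 and Itpr3, at 32 bases.
Ryr1 and Ryr2: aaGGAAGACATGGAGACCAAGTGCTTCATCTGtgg
Itpr2 and Itpr3: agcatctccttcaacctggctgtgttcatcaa
In Ryr2 the first run lies in coding exons 102 and 103, at chr13:11558047-11558061 and chr13:11556679-11556698 on the minus strand. In Ryr1 it lies in exons 103 and 104, at chr7:29004783-29004797 and chr7:29004506-29004525, also on the minus strand. The run of Itpr2 lies in exon 47 at chr6:146187487-146187518 (minus strand) and that of Itpr3 in exon 49 at chr17:27116219-27116250 (plus strand). On the other strand, Aven overlaps 916 exonic bases of Ryr3 and held 1336 reads in all, and reads of such a pair cannot be told apart without strand. Itpr3os overlaps 233 exonic bases of Itpr3 and held 1 read.

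Ryr2 (ENSMUSG00000021313, GRCm38 chr13:11553102-12106945, minus strand, 105 exons in the longest coding transcript) encodes the ryanodine receptor of heart muscle and the main one of many brain regions, and its promoter window held AGGTCA. In replicates A, B and C it was at 39.0, 33.8 and 41.4 CPM at ZT14 and at 10.2, 15.9 and 7.75 CPM at ZT18. At ZT22 it was at 21.7, 66.5 and 62.5 CPM and at ZT2 at 32.4, 33.8 and 33.3 CPM. At ZT6 it was at 21.4, 20.1 and 29.9 CPM and at ZT10 at 15.7, 10.4 and 26.0 CPM. All replicates of ZT14 lay above all of ZT18, while ZT22 was split between replicate A, the lowest of its group, and the other replicates, which were the highest of the series. From the highest mean at ZT22 (50.2 ± 24.8 CPM, SD, n = 3) to the lowest at ZT18 (11.3 ± 4.17 CPM) Ryr2 differed 4.46-fold (edgeR F-test over time, adjusted p = 0.00183). In the order of means (ZT22, ZT14, ZT2, ZT6, ZT10, ZT18), the replicates of neighbouring timepoints overlapped in 3 of 5 cases, and they were apart between ZT14 and ZT2 and between ZT2 and ZT6. Between ZT14 and ZT2 they were apart only by 33.82 CPM in ZT14 replicate B against 33.78 CPM in ZT2 replicate B, which are all but equal. The study assigned Ryr2 to its group of genes with peaks at ZT14 and ZT22 on these same samples, so this order is no independent evidence for it.

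Ryr3 (ENSMUSG00000057378, chr2:112631355-113217096, minus strand, 104 exons) encodes the ryanodine receptor found at low level in many tissues. It was at 5.97, 10.5 and 5.88 CPM at ZT14 in replicates A, B and C, and at 2.37, 3.34 and 3.91 CPM at ZT18. At ZT22 it was at 5.83, 8.82 and 9.78 CPM and at ZT2 at 7.35, 7.49 and 5.93 CPM. At ZT6 it was at 3.47, 1.99 and 7.86 CPM and at ZT10 at 1.26, 1.43 and 2.74 CPM. The ZT10 replicates were low together, and ZT6 replicate C was as high as the ZT2 replicates. Ryr3 changed with time (adjusted p = 0.0157), from 8.14 ± 2.06 CPM (SD, n = 3) at ZT22 to 1.81 ± 0.81 CPM at ZT10, although neighbours in the order of means overlapped in 5 of 5 cases. This call was lost without ZT10 replicate A (adjusted p = 0.0537) or ZT10 replicate B (adjusted p = 0.0528).

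Ryr1 (ENSMUSG00000030592, chr7:29003344-29125179, minus strand, 106 exons) encodes the channel that drives contraction of skeletal muscle. ZT6 replicate A held 140 reads, or 6.07 CPM, while ZT6 replicate B held 13 reads (0.616 CPM) and ZT6 replicate C none, where a limit of 3 reads corresponds to 0.142 CPM. Elsewhere replicates A, B and C were at 0.339, 0.775 and 0.308 CPM at ZT2, at 0.825, 0.391 and 0.991 CPM at ZT10, and at 1.45, 2.21 and 0.605 CPM at ZT14. At ZT18 they were at 0 (limit 0.0960 CPM), 1.19 and 1.04 CPM, and at ZT22 at 0.652, 0.478 and 0.824 CPM. The 17 libraries other than ZT6 replicate A thus ranged up to 2.21 CPM and overlapped at every timepoint, and Ryr1 did not pass the test over time (adjusted p = 0.655).

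The library with the high Ryr1 value also held RNA of striated muscle. The summed level of 9 striated muscle markers was 578 CPM in ZT6 replicate A and between 8.85 and 35.8 CPM in the 17 other libraries, and 7 of the 9 markers were highest there. Acta1, skeletal muscle actin, was at 185 CPM against at most 18.1 CPM elsewhere, and Ckm, muscle creatine kinase, at 105 CPM against at most 0.911 CPM. Some genes of the muscle calcium store were high in the same library: Atp2a1, the calcium pump of fast muscle, was at 32.4 CPM against at most 1.28 CPM, Casq1, a calcium buffer of the store, at 11.4 against at most 1.85 CPM, and Trdn, which ties that buffer to Ryr1, at 6.85 against at most 2.39 CPM. The junctophilins Jph1 and Jph2, which hold the store to the membrane in muscle, were not, each at 0.0868 CPM against medians of 1.54 and 0.576 CPM in the other libraries. The part of muscle RNA in the Ryr1 value was not tested. Without ZT6 replicate A, the log2 difference of Ryr1 between ZT6 and ZT2 turned from 2.22 to -0.62, neither called, and the change of Atp2a1 with time lost its call (adjusted p = 0.0034 with and 0.331 without it).

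**Figure D3:**
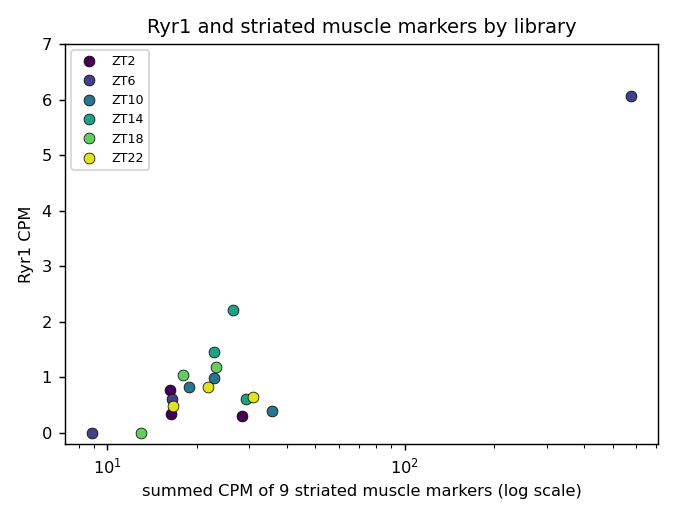
Ryr1 level (CPM, vertical axis) against the summed CPM of 9 striated muscle markers (horizontal log axis) in the 18 libraries, coloured by timepoint. ZT6 replicate A stands alone at 578 and 6.07 CPM, and the 17 other libraries lie between 8.85 and 35.8 CPM on the horizontal axis and at or under 2.21 CPM on the vertical axis.

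Itpr1 (ENSMUSG00000030102, chr6:108213096-108551109, plus strand, 62 exons) encodes the main IP3 receptor of neurons. In replicates A, B and C it was at 289, 268 and 226 CPM at ZT14 and at 80.4, 95.1 and 78.0 CPM at ZT18. At ZT22 it was at 106, 181 and 194 CPM and at ZT2 at 151, 111 and 146 CPM. At ZT6 it was at 36.4, 35.3 and 27.5 CPM and at ZT10 at 49.9, 23.9 and 40.9 CPM. The ZT14 replicates stood above all others of the series, and the 6 replicates of ZT6 and ZT10 stood below all others. Itpr1 had the smallest p over time of the 6 genes (adjusted p = 2.97e-07) and a 7.90-fold difference between ZT14 (261 ± 32.0 CPM, SD, n = 3) and ZT6 (33.1 ± 4.85 CPM). In the order of its means (ZT14, ZT22, ZT2, ZT18, ZT10, ZT6), ZT22 overlapped with ZT2 and ZT10 with ZT6, and the other 3 of 5 neighbouring pairs were apart.

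Itpr2 (ENSMUSG00000030287, chr6:146108299-146502223, minus strand, 56 exons) encodes the IP3 receptor best known from astrocytes and heart, and its promoter window held the 4 GC boxes. It was at 26.0, 24.7 and 16.03 CPM at ZT14 in replicates A, B and C, and at 17.4, 25.0 and 21.9 CPM at ZT18. At ZT22 it was at 26.0, 26.1 and 35.3 CPM and at ZT2 at 20.5, 28.8 and 26.5 CPM. At ZT6 it was at 13.5, 19.04 and 6.67 CPM and at ZT10 at 13.8, 10.5 and 10.4 CPM. The levels of the timepoints in a cluster overlapped throughout, and 98.5% of the variance of its 6 timepoint means lay between the clusters of libraries. The corresponding share was 80.9% for Itpr1, 63.3% for Ryr3 and 39.4% for Ryr2. Itpr2 changed with time (adjusted p = 0.0130) and differed 2.52-fold between ZT22 (29.2 ± 5.35 CPM, SD, n = 3) and ZT10 (11.6 ± 1.96 CPM). The call was lost on the reads of the second, normalized table (adjusted p = 0.0848) and with the trend of transcript length removed (adjusted p = 0.149). It was also the 1 of 6 genes that passed both this test and JTK_CYCLE, a rank test for a 24-hr rhythm, against 29.8% of all genes. Its JTK_CYCLE p, from the exact null distribution and Bonferroni-adjusted over 6 lags, was 0.00224 with the highest fitted time at ZT22. Astrocyte markers, of which all 10 were detected, had their highest sums in the same cluster (between 6641 and 8870 CPM at ZT22 and ZT2) and their lowest at ZT6 and ZT10 (between 3081 and 4131 CPM). By gene, 6 of the 10 had their highest mean at ZT22 or ZT2 and 7 their lowest at ZT6 or ZT10. This pattern was not particular to astrocytes. Of 10 endothelial and mural markers, 5 had their highest mean at ZT22 or ZT2 and 6 their lowest at ZT6 or ZT10. Median sums of the endothelial and mural markers were 776 CPM (ZT2) and 749 CPM (ZT22), against 395 CPM (ZT6) and 452 CPM (ZT10). Their ZT14 sums, between 443 and 478 CPM, overlapped those of ZT10. The part of either group of cells in the Itpr2 level was not tested.

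Itpr3 (ENSMUSG00000042644, chr17:27057304-27122223, plus strand, 58 exons) encodes the IP3 receptor of many epithelia and of taste cells, and its promoter window held the E-box. It was at 5.44, 3.37 and 1.40 CPM at ZT14 in replicates A, B and C, and at 3.54, 4.51 and 0.897 CPM at ZT10. At ZT18 it was at 3.14, 0.514 and 0.427 CPM and at ZT6 at 1.39, 0.0947 and 0.0473 CPM. At ZT2 it was at 0.679, 0.818 and 0.193 CPM and at ZT22 at 1.27, 0.808 and 0.896 CPM. The replicates spread more within timepoints than the means did between neighbours, 5 of 5 of which overlapped. With between 1 and 195 reads per replicate, Itpr3 did not pass the test over time (adjusted p = 0.149), but it passed without ZT6 replicate A (adjusted p = 0.0138).

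Inside the ZT14 and ZT18 cluster, 2 of the 6 genes passed the test of their difference, both lower at ZT18, against 0.57% of all genes in either direction and 0.412% lower. Itpr1 fell by 1.63 on the log2 scale (SE 0.26, edgeR adjusted p = 0.0242) and Ryr2 fell by 1.75 (SE 0.39, adjusted p = 0.0492). The replicates of ZT18 all lay below those of ZT14 for Itpr1, Ryr2 and Ryr3, 3 of 6 genes, against 11.6% of all genes. The value for Ryr3 was -1.22 (SE 0.51, adjusted p = 0.289) and that for Itpr2 -0.05 (SE 0.32, adjusted p = 0.972). The low genes Ryr1 (-0.94, SE 1.38) and Itpr3 (-1.31, SE 1.07) had standard errors as large as their differences or nearly so. The log2 ratio of Ryr2 to Itpr2 was 1.77 higher at ZT14 than at ZT18 without overlap (exact permutation p = 0.1, the smallest possible).

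The size of these differences held better than their calls. Over the 18 fits that each left out 1 replicate, Itpr1 stayed between -1.72 and -1.55 and was called in 13, and it lost the call without ZT14 A, ZT14 B, ZT14 C, ZT18 B or ZT18 C (adjusted p between 0.0514 and 0.121). Ryr2 stayed between -2.08 and -1.55 and was called in 4 of the 18, those without ZT6 C, ZT10 B, ZT10 C or ZT22 A (adjusted p between 0.0548 and 0.184 in the others). The number of calls over all 18941 genes was 108, and it was 844 with DESeq2 and 0 without ZT14 A, ZT18 B or ZT18 C.

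Markers of excitatory neurons of the telencephalon, a region outside the SCN, moved in the same direction. The table held 7 of 8 such markers, none of them at 0 in every library, and 7 of 7 had higher means at ZT14 than at ZT18, with sums between 240 and 414 CPM at ZT14 and between 56.1 and 158 CPM at ZT18. At ZT22 the sums were between 101 and 282 CPM and at ZT2 between 59.4 and 126 CPM. ZT22 replicate A was the lowest of its timepoint in this sum as in Ryr2 and Itpr1. ZT18 replicate C had the highest sum of its timepoint (158 CPM) with the lowest Ryr2 (7.75 CPM) and Itpr1 (78.0 CPM). ZT14 replicate C had the highest sum of its timepoint (414 CPM) with the lowest Itpr1 (226 CPM) and the highest Ryr2 (41.4 CPM). The highest sum also went with the highest Ryr2 in ZT22 replicate B (282 and 66.5 CPM) and ZT10 replicate C (256 and 26.0 CPM). In ZT6 replicate C (43.8 and 29.9 CPM) and ZT2 replicate B (59.4 and 33.8 CPM) the lowest sum went with the highest Ryr2. At ZT10 the sums were between 91.4 and 256 CPM, and at ZT6 between 43.8 and 85.7 CPM, while Itpr1 and Ryr2 did not pass the test between these timepoints. The part of these cells in the receptor levels was not tested. Endothelial and mural markers moved the other way, from sums of 443 to 478 CPM at ZT14 to 636 to 691 CPM at ZT18, with 2 of 10 means higher at ZT14. The 10 SCN markers summed to 1803 to 2413 CPM at ZT14 and 2527 to 2934 CPM at ZT18, but moved in both directions, with 5 of 10 means higher at ZT14, all replicates above ZT18 for 2 and all below for 4.

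Inside the ZT22 and ZT2 cluster none of the 6 genes passed (0 with edgeR after adjustment, 0 at an unadjusted p under 0.05 and 0 with DESeq2), against 0.0317% of all genes after adjustment and 3.59% before it. The log2 differences of ZT2 from ZT22 were -0.60 (SE 0.38) for Ryr2, -0.23 (SE 0.50) for Ryr3, -0.24 (SE 0.25) for Itpr1 and -0.21 (SE 0.32) for Itpr2. Inside the ZT6 and ZT10 cluster the count was again 0 with edgeR and 0 with DESeq2, against 0.0475% of all genes with edgeR. There, 2 of the 6 genes had an unadjusted p under 0.05 against 10.8% of all genes, Ryr3 with a log2 difference of ZT10 from ZT6 of -1.29 (SE 0.51, adjusted p = 0.409) and Itpr3 with 2.53 (SE 1.13, adjusted p = 0.438). Itpr1, at its lowest in this cluster, differed by 0.21 (SE 0.25).

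**Figure D4:**
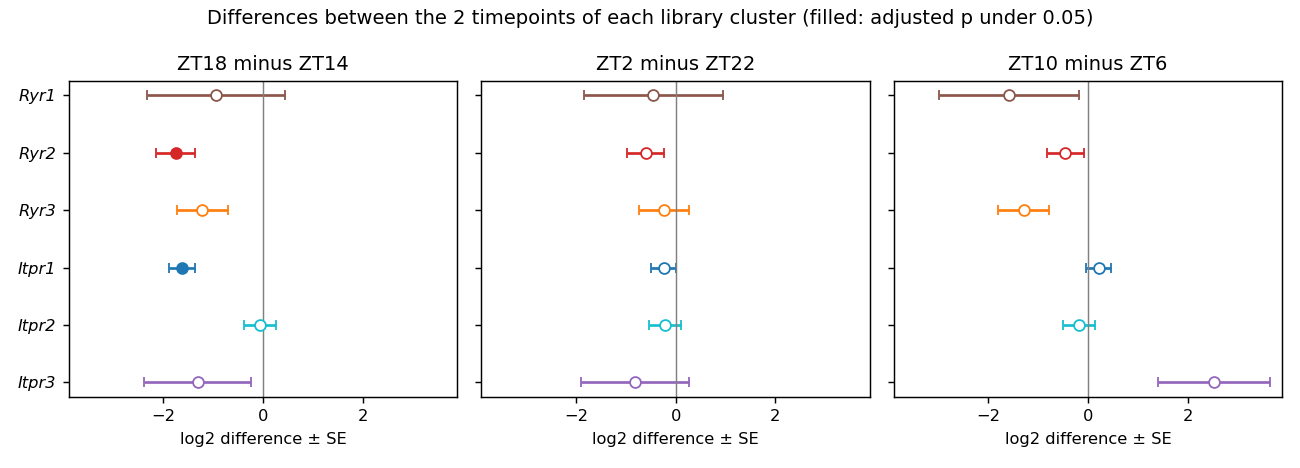
Log2 difference between the timepoints of each cluster of libraries (horizontal axis) with its SE from the edgeR fit, for the 6 genes (vertical axis), in panels for ZT18 minus ZT14, ZT2 minus ZT22 and ZT10 minus ZT6. The filled points, Ryr2 at -1.75 and Itpr1 at -1.63 in the first panel, are those with an adjusted p under 0.05.

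The mean of ZT14 and ZT22 was also compared with the mean of ZT18 and ZT2, which sets the peaks of the study's twin-peaking genes against the other timepoint of the same cluster. Itpr1 passed (log2 difference 0.93, SE 0.18, adjusted p = 0.0463), 1 of the 6 genes against 0.148% of all genes in either direction and 0.127% higher. Its parts were unequal, with ZT18 minus ZT14 at -1.63 and ZT2 minus ZT22, which did not pass, at -0.24. Ryr2 had the larger combined difference (1.18, SE 0.27) with an adjusted p of 0.0698. DESeq2 called both (2 of 6), against 460 of all 18941 genes. Without ZT22 replicate A, where Ryr2 was at 21.7 CPM, Ryr2 passed (1.36, adjusted p = 0.0112), and the call of Itpr1 was lost in 13 of 18 fits that left out a replicate (adjusted p between 0.0508 and 0.173). Ryr2, Ryr3 and Itpr1 had their highest means at ZT14 and ZT22 and changed with time, a pattern that 408 of the genes tested, or 2.15%, shared. For each of them the replicates of ZT22 and ZT2 overlapped.

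Between clusters, where the part of any sequencing batch was not tested, more of the genes tested were called. From ZT2 to ZT6, 2 of 6 genes passed against 33.8% of all genes, both lower, against 16.3% lower over all genes: Itpr1 (-2.04, SE 0.26, adjusted p = 1.24e-05) and Itpr2 (-0.95, SE 0.32, adjusted p = 0.0308). The Itpr2 call was lost without ZT2 B, ZT2 C, ZT6 A or ZT6 C (adjusted p between 0.0526 and 0.107). From ZT10 to ZT14, 3 of 6 passed against 16.8%, all higher, against 9.31% higher over all genes: Itpr1 (2.77, SE 0.27, adjusted p = 4.33e-06), Ryr3 (2.04, SE 0.52, adjusted p = 0.0117) and Ryr2 (1.13, SE 0.38, adjusted p = 0.0493), where the median of all genes was 0.12. Of these, Ryr3 lost its call without ZT10 A, ZT10 B or ZT14 B (adjusted p between 0.0552 and 0.0594), and Ryr2 in 13 of 18 such fits (adjusted p between 0.0523 and 0.197). From ZT18 to ZT22, 2 of 6 passed against 18.1%, both higher, against 6.27% higher over all genes: Ryr2 (2.15, SE 0.39, adjusted p = 0.00082) and Itpr1 (0.93, SE 0.25, adjusted p = 0.0158), the second of which was lost without ZT18 A, ZT22 B or ZT22 C (adjusted p between 0.0504 and 0.0865).

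All 6 genes have long transcripts, and the median level of long genes moved over the day, at some timepoints along with shorter genes. Among tested genes that averaged 10 or more reads per replicate, 1863 had exons that sum to at least the 9019 bases of the shortest member. Their median log2 deviation from their own means was 0.20 at ZT14 and -0.10 at ZT18, 0.17 at ZT22 and 0.22 at ZT2, and -0.13 at ZT6 and -0.24 at ZT10. The 3163 genes under 2 kb, with the same minimum of reads, were at -0.01 at ZT14, 0.06 at ZT18 and 0.33 at ZT10. The 10601 genes between these classes were near the long genes at ZT14 (0.15), ZT22 (0.10) and ZT6 (-0.16). At ZT18 (0.02), ZT2 (0.06) and ZT10 (-0.01) they moved less than the long genes. The deviations of Itpr1 were 1.52 at ZT14 and -0.10 at ZT18, and those of Ryr2 were 0.61 and -1.20. When the trend of level with exon length was removed in each library, Itpr1 fell by 1.20 from ZT14 to ZT18 (adjusted p = 0.0609) and Ryr2 fell by 1.27 (adjusted p = 0.102), so that neither was called, in a fit that called 1 of all genes between these timepoints against 108 without the removal. Ryr2 and Itpr1, 2 of the 6 genes, changed with time in that fit, against 8288 of all 18941 genes. The removal was not limited to length, since the median ZT18 minus ZT14 difference of all genes also moved, from -0.01 to 0.17.

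**Figure D5:**
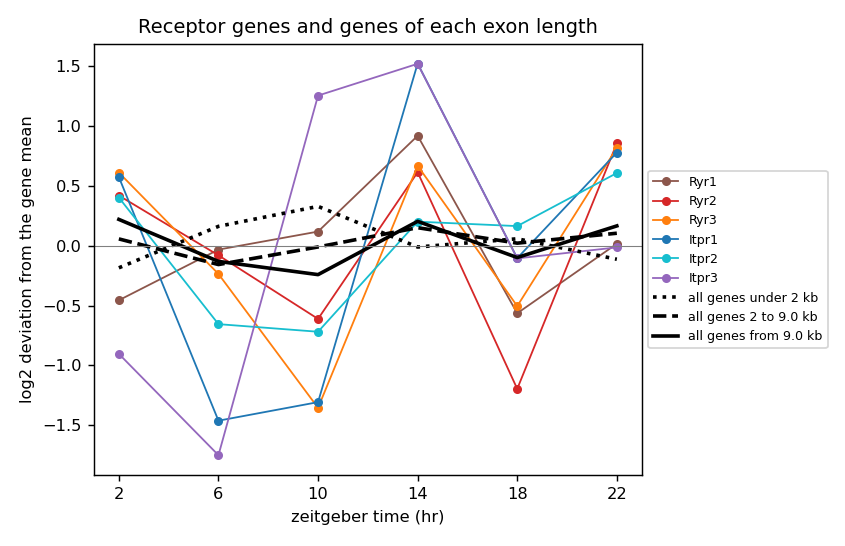
Mean log2 deviation from its own mean (vertical axis) of each gene, against zeitgeber time in hours. Black lines are medians of tested genes that averaged 10 or more reads per replicate, in 3 classes of summed exon length. Genes of 9019 bases or more were at 0.20 at ZT14 and -0.10 at ZT18, while Itpr1 was at 1.52 and -0.10 and Ryr2 at 0.61 and -1.20.

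Over the 18 replicates, the members most alike in log2 CPM were Itpr1 and Itpr2 (Pearson r = 0.77), Ryr2 and Ryr3 (r = 0.75), and Ryr3 and Itpr1 (r = 0.69), a description in which the points share timepoints, clusters and depth. As deviations from the timepoint means, the values were 0.44, 0.49 and 0.03 for these pairs. Among the 15758 genes that averaged 10 or more reads per replicate, the profiles closest to Ryr2 were those of Adarb2 (r = 0.93), Epha4 (r = 0.93) and Kif1b (r = 0.91). Those closest to Itpr1 were Lynx1 (r = 0.95), Ptprj (r = 0.95) and Socs7 (r = 0.94), those closest to Ryr3 were Ksr2 (r = 0.91), Ltn1 (r = 0.90) and Clstn2 (r = 0.89), and those closest to Itpr2 were Zfp334 (r = 0.92), Mknk1 (r = 0.92) and Gpr89 (r = 0.91). For the low genes the closest were Ust, Prkx and Prtg at r = 0.75 each for Ryr1, and P2ry6 (r = 0.86), Arhgap11a (r = 0.83) and Rinl (r = 0.82) for Itpr3.

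Of 92 other genes of intracellular calcium signalling, 87 were tested and 49 changed with time, or 56.3% against 44% of all genes. Among genes with at least 10 counts in every replicate the shares were closer, at 47 of 68 against 7786 of 11444 genes. Inside the ZT14 and ZT18 cluster 4 of the 87 passed, all lower at ZT18, against 0.57% of all genes in either direction and 0.412% lower: the plasma membrane calcium pumps Atp2b1 (-1.65, SE 0.24), Atp2b2 (-1.23, SE 0.20) and Atp2b4 (-1.23, SE 0.21), each with an edgeR adjusted p of 0.0242, and Plcb1 (-1.11, SE 0.24, adjusted p = 0.0470), a phospholipase C that makes IP3. The median log2 difference over the 87 genes was -0.15, against -0.01 over all genes. Atp2b1 was at 464, 475 and 320 CPM at ZT14 and at 136, 132 and 134 CPM at ZT18, and Atp2b2 was at 506, 369 and 403 CPM and at 186, 179 and 182 CPM, without overlap. These pumps, which carry calcium out of the cell, thus fell along with the release channels Itpr1 and Ryr2. Atp2b1 (1.13, SE 0.17, adjusted p = 0.0262) and Atp2b2 (0.82, SE 0.14, adjusted p = 0.0463) were also the 2 of 87 that passed in the comparison of ZT14 and ZT22 with ZT18 and ZT2. From ZT22 to ZT2, 0 of 87 passed with edgeR, against 0.0317% of all genes, and 7 at an unadjusted p under 0.05, against 3.59%. DESeq2 called 0 of 87 there, against 34 of 18941 genes. From ZT6 to ZT10, 0 of 87 passed with edgeR, against 0.0475% of all genes, and 6 at an unadjusted p under 0.05, against 10.8%. DESeq2 called 3 of 87 there, for which no share over all genes is given here. Over all genes 0 to 2 were called between ZT14 and ZT18 when any replicate of ZT14, or ZT18 B or ZT18 C, was left out, and 86 without ZT18 A. With the trend of transcript length removed, 0 of the 87 were called between ZT14 and ZT18 (adjusted p between 0.0534 for Atp2b1 and 0.171 for Plcb1), and the part of the telencephalic markers, higher at ZT14 in 7 of 7 cases, was not tested here either.

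The lists of the pathway changed with time as follows, with up to 2 genes of smallest p named in each. Each count stands against the 44% of all genes tested that changed with time, a share that includes genes with few reads. IP3 production (42.9%), IP3 breakdown (40%) and the cytosolic buffers (33.3%) lay below that share and the other lists above it, in lists of 3 to 23 tested genes. In IP3 production 6 of 14 changed, among them the G protein subunit Gnaq (557 ± 110 CPM at ZT22, 186 ± 26.2 at ZT10, SD, n = 3) and the phospholipase Plch2 (43.0 ± 10.6 at ZT18, 9.17 ± 1.22 at ZT2). In IP3 breakdown 2 of 5 changed, the kinase Itpkc (18.3 ± 5.26 CPM at ZT2, 6.16 ± 1.60 at ZT10) and the phosphatase Inpp1 (49.9 ± 2.12 at ZT14, 22.1 ± 5.27 at ZT6). Of the 4 genes for cyclic ADP-ribose and NAADP, which act on ryanodine receptors and on channels of acidic stores, 3 changed, with Cd38, the enzyme that makes these messengers, at 66.0 ± 16.8 CPM at ZT2 and 28.6 ± 5.44 at ZT10, and the acidic-store channel Tpcn1 at 16.4 ± 0.74 at ZT14 and 6.28 ± 0.74 at ZT22. Gnaq, Cd38 and Itpkc were lowest at ZT10, where Itpr2 and Ryr3 were lowest too. Of the 49 pathway genes that changed with time, 11 were lowest at ZT10, 14 at ZT6 and 14 at ZT2.

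Of the channel partners 13 of 23 changed. Calm3, which encodes calmodulin, was at 812 ± 44.9 CPM at ZT6 and 230 ± 30.6 at ZT2, and Jph3, a junctophilin that joins ER to plasma membrane in neurons, at 66.0 ± 10.98 at ZT14 and 14.2 ± 3.36 at ZT2. Of the pumps and exchangers 7 of 13 changed, among them Atp2b1 and Atp2b2 and, with the muscle library, Atp2a1. In store-operated entry 6 of 11 changed, with Saraf, which slows that entry, at 418 ± 57.4 CPM at ZT6 and 138 ± 9.09 at ZT2, and the channel subunit Orai3 at 48.6 ± 15.5 at ZT18 and 8.89 ± 0.87 at ZT2. Calm3, Jph3, Saraf and Orai3 were thus at their lowest means at ZT2, where neither Itpr1 nor Ryr2 was lowest.

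Of the ER luminal proteins 6 of 9 changed, with the chaperone Pdia3 at 347 ± 89.0 CPM at ZT6 and 93.3 ± 11.3 at ZT2, and the calcium-binding Rcn2 at 412 ± 129 at ZT6 and 114 ± 11.7 at ZT22. In mitochondrial uptake only 5 of the 9 listed genes were tested. All 5 of these changed, with the uniporter subunit Mcub at 86.4 ± 14.9 CPM at ZT10 and 6.85 ± 1.28 at ZT22. Of the 92 listed genes, 5 were not analysed here. Of the cytosolic buffers 1 of 3 changed, Calb1 (calbindin) at 231 ± 7.40 CPM at ZT6 and 74.7 ± 17.8 at ZT14, while Pvalb did not pass (52.7 ± 23.2 at ZT22 and 17.2 ± 3.94 at ZT18, adjusted p = 0.360). Most of these extremes lay in different clusters of libraries.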

How the data were processed

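RNA-seq was made from laser-captured mouse SCN in 18 replicates (6 timepoints, 3 replicates each). Per the labels and the study's methods, the authors aligned the reads with GSNAP to GRCm38 (mm10), counted reads per gene with HTSeq 0.5.4p1, and combined the lanes of a replicate. One deposited table holds these read counts, without normalization. The other deposited table holds normalized signal, the counts divided by a size factor per column (DESeq2), and its values were whole multiples of a step in 100% of cases within a tolerance of 0.01 reads. The reads recovered from it served as an alternative. The number of deposited sample columns not used was 0. Differences between neighbouring timepoints, and of ZT14 and ZT22 against ZT18 and ZT2, come from a single fit of the 18 replicates in edgeR 4.0.16 (R 4.3.3), with TMM scaling, quasi-likelihood tests and Benjamini-Hochberg adjustment over 18941 genes at a threshold of 0.05. JTK_CYCLE (24 hr, Bonferroni over 6 lags) was computed on log2 CPM, and limma 3.58.1 (cosinor) and DESeq2 1.42.0 gave alternatives. Other alternatives were other scaling factors, other filters on low counts, removal of the length trend, a replicate block and leaving out each replicate. The fits were tested on simulated data. Counts of replicate pairs differed by 31.6 to 141 in chi-square per gene, so no library was taken as a repeat of another. Depth was between 15412981 and 35820945 reads, and limits given for a count of 0 (3 reads) cover counting error only. Named genes were the 6 members, the 2 genes of smallest p in each of 9 pathway lists and the 3 genes most correlated with each member, and the calls inside the clusters were named after their values were seen, as were the muscle and marker genes. One gene that this rule names is not reported here. The members, lists and tests were chosen with earlier results of these data known. The study's comparison of the SCN with other tissues and its long noncoding RNAs were not analysed here.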

Additional observations from a re-analysis of the deposited data

How the results depend on the processing

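Itpr1 and Ryr2 changed with time in all 26 alternatives. Removing the trend with transcript length moved most: the number of members that changed with time fell from 4 to 2, and the numbers that differed went to 1 between ZT2 and ZT6, 1 between ZT10 and ZT14, 0 between ZT14 and ZT18, 1 between ZT18 and ZT22 and 0 for ZT14 and ZT22 against ZT18 and ZT2. Over all 18941 genes, 8288 changed with time after the removal and 8343 without it. The removal also moved the median ZT18 minus ZT14 difference of all genes from -0.01 to 0.17. With the trend removed, uncalled values turned sign for Itpr2 (ZT18 minus ZT14 0.36, combined comparison -0.060) and Itpr3 (ZT6 minus ZT2 0.26, ZT14 minus ZT10 -0.31). Between ZT14 and ZT18 the number was 1 with DESeq2 size factors and 1 with upper-quartile factors. The combined comparison gave 0 with either and 2 of 6 with DESeq2. It gave 2 of the 4 members tested with at least 10 counts in every replicate and 2 of 6 with no filter. Over all genes, it called 133 of 11444 with that minimum and 110 of 25395 with no filter. With no filter, Itpr2 ZT18 minus ZT14 was 0.0015. With the recovered reads 3 members changed with time, 1 differed between ZT2 and ZT6, and 0 cycled, while cosinor regression gave 2 cycling members. Over all genes, DESeq2 called 844 between ZT14 and ZT18 and 460 in the combined comparison, against 108 and 28 with edgeR. The number of pathway genes that changed with time stayed between 44 and 58 of 87 tested, and was 47 of 68 with at least 10 counts in every replicate.

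The replicate letters did not pair the samples: 1 of 45 same-letter correlations of deviations was over 0.1, their range was -0.19 to 0.10, and 6 of 18 libraries were closest to their own letter. With the replicate block, 1 member differed between ZT14 and ZT18 and 0 in the combined comparison, 5 changed with time, and Itpr3 ZT22 minus ZT18 turned to 0.20.

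Leaving out each replicate gave 3 to 5 members that changed with time, 1 to 2 between ZT2 and ZT6, 1 to 4 between ZT10 and ZT14, 0 to 2 between ZT14 and ZT18, 1 to 3 between ZT18 and ZT22 and 0 to 2 in the combined comparison, and 1 cycling member throughout. The combined count was 0 without any of ZT2 A, B or C, ZT6 B, ZT10 C, ZT14 A, B or C, ZT18 A, B or C, and ZT22 B or C. The values that turned sign, all uncalled, ranged from -2.90 to 0.41 for Itpr3 ZT6 minus ZT2, -0.32 to 0.62 for Itpr3 ZT14 minus ZT10, -0.88 to 1.06 for Itpr3 ZT22 minus ZT18, -0.24 to 0.077 for Itpr2 ZT18 minus ZT14, -0.49 to 0.19 for Itpr2 ZT10 minus ZT6, -0.031 to 0.46 for Itpr1 ZT10 minus ZT6, -0.62 to 2.81 for Ryr1 ZT6 minus ZT2, -2.18 to 1.24 for Ryr1 ZT10 minus ZT6 and -0.77 to 0.37 for Ryr1 ZT22 minus ZT18. The cause of these changes was not tested. Ryr1 and Itpr3, behind most of them, held 0 to 195 reads per replicate.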

Other observations

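The deposited tables differ in the reads of these genes at 2 of the 6 timepoints. At ZT6 and ZT10, 32 of 36 member values were lower in the reads recovered from the normalized table than in the count table, with a median of 88.7% of the counted reads and a lowest value of 15.4% (Ryr1 in ZT6 replicate B, 13 reads against 2). Itpr2 in ZT6 replicate C had 141 counted and 64 recovered reads. At the other timepoints 70 of 72 member values were identical. What was done differently to the ZT6 and ZT10 libraries is not given in the sources used here.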
